A study of Mus musculus with 6 samples.

Results

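The miRNAs miR-150 and miR-342, each measured on both arms of its hairpin, were followed in cultured bone marrow cells of diabetic and control mice. They were taken by probe name from the scanner files, which gave 4 probes (mmu-miR-150-5p, mmu-miR-150-3p, mmu-miR-342-5p and mmu-miR-342-3p, written without the mouse prefix from here on) out of 1900 mouse miRNA probes on the array. The microarray was a 1-colour miRNA array hybridised with Cy5-labelled total RNA, and every probe was printed in 2 spots. There were 3 arrays of cells from db/+ mice and 3 arrays of cells from db/db mice, all from adult males. The db/db mice carry the diabetes mutation of the leptin receptor on both chromosomes and develop obesity and type 2 diabetes, and the db/+ mice are their littermate controls from the same colony, which carry the mutation on 1 chromosome. Marrow mononuclear cells had been grown in endothelial growth medium for 4 days, non-adherent cells were then washed away, and the adherent cells were grown for another 3 days. The labels call them bone marrow-derived progenitor cells, and they do not say whether each sample came from its own animal, so p-values cover only the variation among these samples, which may be technical. Precision is limited by there being so few arrays.

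A miRNA gene is transcribed as a hairpin, from which the enzymes Drosha and Dicer cut a short duplex of the 5p and the 3p arm. One arm is usually kept by an Argonaute protein and pairs with messenger RNAs through its seed, bases 2 to 8, while the other is mostly degraded. In mice miR-150 is known as a miRNA of mature lymphocytes that represses the transcription factor Myb, and its 5p arm is the usual main arm. miR-342 is known from blood cells and lies inside Evl, the gene of an actin regulator of the Ena/VASP family. Its 3p arm is the usual main arm.

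The target sequences of the 4 probes are shown with the seed in capitals, because the seed sets which messenger RNAs each arm can pair with. All 4 were read from the deposited files.
miR-150-5p: uCUCCCAAcccuuguaccagug
miR-150-3p: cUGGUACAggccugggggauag
miR-342-5p: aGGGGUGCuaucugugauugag
miR-342-3p: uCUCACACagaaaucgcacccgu

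The 4 seeds differ from each other. For 3 of the 4 arms an identical mature sequence was matched by name in RefSeq (GRCm38.p6): miR-150-3p at chr7:45121798-45121819, miR-342-5p at chr12:108658638-108658659 and miR-342-3p at chr12:108658680-108658702, all on the plus strand. The deposited files name no genome build. In the same RefSeq annotation no other gene spans Mir150, and Mir342 lies within the span of Evl.

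The miR-342 hairpin is printed with both arms in capitals, because its arms gave the brightest and one of the dim readings among the 4 probes. It is the RefSeq hairpin at chr12:108658620-108658718 on the plus strand.
mir-342: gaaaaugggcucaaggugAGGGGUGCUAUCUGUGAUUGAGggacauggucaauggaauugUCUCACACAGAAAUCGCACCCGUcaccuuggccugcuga

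Among all other mouse probes on the array only miR-5127 shares a seed with one of the 4, namely that of miR-150-5p. The target most similar to miR-150-5p in its whole sequence is miR-3971. The pair is shown with its longest common run in capitals, since a probe for one could in principle also bind the other.
miR-150-5p: ucucccaacccuUGUACCAGUG
miR-3971: cuccccaccccUGUACCAGUGa

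The shared run is 10 bases long. The miR-3971 probe read between 0.799 and 1.64 times the median blank spot of its array and was above the blanks on 3 of 6 arrays, and miR-5127 read between 0.881 and 1.36 times it, also on 3 arrays. Both were thus as dim as the miR-150-5p probe, described next. Their log2 differences, db/db minus db/+, were 0.0064 for miR-3971 and 0.055 for miR-5127, with limma adjusted p of 1.00 and 0.96.

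The arrays differed in brightness as a whole. The median of the mouse probes lay between 49.5 and 104.4 and the median of the 4 blank spots between 39.1 and 97.2. A probe was taken as detected on an array where the mean of its spots was above the blanks' 95th percentile, which 751 to 1855 probes did. On db/db replicate 3 the blank median, 73.0, was above the median of the mouse probes, 65.7, so that detection was strictest there. A spike control, a3-PUC2PM-20B, was bright on db/+ replicates 1 and 2 and db/db replicate 2, at 30080 to 46507, and dim on the other arrays, at 7081 to 12516. The probe of miR-126a-3p, a miRNA of endothelial cells, read 15.6 to 35.7 times the blank median, so that arm was well above the blanks. Its other arm, miR-126a-5p, and the miR-126b-5p and miR-126b-3p probes read 0.602 to 1.17 times it. Each of these was detected on 1 of 6 arrays.

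The signals of the 4 probes fell into a bright one and 3 dim ones. The miR-342-3p probe read 4099, 3242 and 1203 in db/+ cells, against 1797, 3677 and 2042 in db/db cells. This was 28.0 to 65.1 times the blank median, and on each array between 95.7% and 97.1% of the mouse probes were dimmer. It was detected on all 6 arrays. These ranks describe brightness only, since probes differ in how strongly they bind and label, and they do not order the amounts of different miRNAs.

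The probe of miR-150-5p, the arm known from lymphocytes, read 102.5, 70.9 and 50.4 in db/+ cells, against 55.8, 56.6 and 50.9 in db/db cells. This was between 0.698 and 1.29 times the blank median. It exceeded the 95th percentile of the blanks on 2 of 3 db/+ arrays and 1 of 3 db/db arrays. These were db/+ replicates 2 and 3 and db/db replicate 1, where 1125, 1701 and 1855 of the 1900 mouse probes did so. The reading was therefore at the blank level, and a level of miR-150-5p was not detectable on every array. Its place among the mouse probes ranged from 24.1% dimmer probes on db/db replicate 1 to 52.8% on db/+ replicate 3, which is the middle or the lower part of each array. On db/db replicate 1 the signal was 1.27 times the blank median, but its rank among the mouse probes was the lowest of the 6 arrays. The blank spots and the rank thus order the arrays differently.

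The probe of miR-150-3p, the arm usually degraded, read 186.0, 108.1 and 68.9 in db/+ cells, against 98.8, 78.2 and 87.1 in db/db cells. It was detected on all 6 arrays, at 1.19 to 2.25 times the blank median. The probe of miR-342-5p, the other usually degraded arm, read 112.8, 86.6 and 55.5 in db/+ and 72.1, 93.1 and 70.3 in db/db cells. It was 0.963 to 1.65 times the blank median and detected on 5 arrays, all but db/db replicate 3. On the chip each miR-342-5p spot lies 1 row beside a miR-342-3p spot, in rows 41 and 40 and in rows 99 and 98, and still read close to the blanks.

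**Figure D1:**
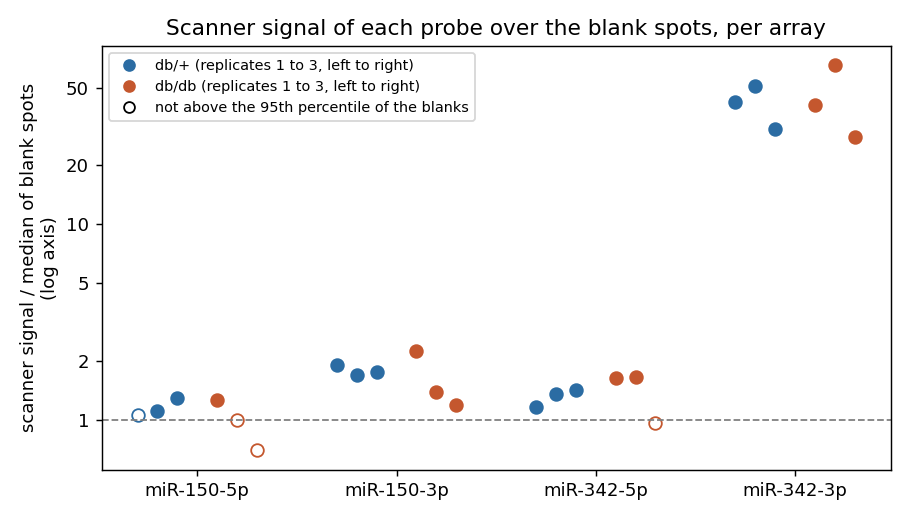
Scanner signal of each of the 4 probes divided by the median of the 4 blank spots of the same array, on a log axis, for the 3 db/+ arrays (blue) and the 3 db/db arrays (orange); open circles are readings not above the 95th percentile of the blanks, and the dashed line marks the blank median. miR-342-3p sits between 28.0 and 65.1, and the other 3 probes between 0.698 and 2.25.

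Of the 2 spots of a probe, the brighter was 1.01 to 1.29 times the dimmer one for miR-342-3p, 1.01 to 1.29 times for miR-150-5p, 1.04 to 1.495 times for miR-150-3p and 1.00 to 1.37 times for miR-342-5p. For miR-150-5p this spread between spots was as wide as its distance above the blank median.

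Arm ratios were formed within each array, which cancels a scaling common to both probes. It removes neither the blank level nor the difference in binding between the arms' probes. The scanner signal of miR-342-3p was 36.3, 37.5 and 21.7 times that of miR-342-5p in db/+ cells, against 24.9, 39.5 and 29.0 times in db/db cells. The groups overlapped, and the 3p arm was the brighter one on all 6 arrays. The blank level is still part of the dim arm in these ratios. The ratios were 36.3, 37.5 and 39.5 on the arrays with the bright spike control, and 21.7, 24.9 and 29.0 on the others. In the authors' deposited table, whose values for dim probes lie below the scanner signal, they were 63.4 to 139.3.

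For miR-150 the order of the arms was the opposite of the known one. The miR-150-5p probe read 0.551, 0.656 and 0.731 times the miR-150-3p probe in db/+ cells, against 0.565, 0.724 and 0.584 times in db/db cells. The 3p probe was thus brighter on all 6 arrays, with overlapping groups. As the 5p probe was at the blank level and the 3p probe at most 2.25 times it, and as the binding of the 2 probes is not known, no ratio of the arms' amounts can be read from these signals.

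The groups were compared to ask whether either miRNA differs between diabetic and control cells. Values were background-corrected, quantile-normalized and put on a log2 scale that includes an added offset of 50, so that differences of dim probes are compressed. Of the 1181 probes that limma tested, 0 (0%) passed 0.05 after Benjamini-Hochberg adjustment, and 59 (5%) had an unadjusted p below it. In the alternative settings between 0 and 4 probes passed. None of the 4 probes passed, and in none of them were the groups separate, where the groups did not overlap in 9.65% of all tested probes. The median log2 difference of all tested probes was -0.023. As these are bulk cultures, fewer cells of a type and less RNA per cell could not be told apart.

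The normalized log2 intensity of miR-342-3p was 11.36, 11.39 and 11.56 in db/+ cells, against 11.47, 11.55 and 10.96 in db/db cells. Of the db/db arrays, replicates 1 and 2 lay within the db/+ range and replicate 3 lay below all others. The means were 11.44 ± 0.10 (SD, n = 3) and 11.33 ± 0.32 (SD, n = 3), which differ by -0.11 on the log2 scale (standard error 0.18), and the limma adjusted p was 0.92. The 95% confidence interval ran from -0.55 to 0.32, or from 0.685-fold to 1.25-fold. Without db/db replicate 3 the difference was 0.067.

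The normalized log2 intensity of miR-150-5p was 6.35, 6.30 and 6.39 in db/+ and 6.11, 6.35 and 6.13 in db/db cells. Replicates 1 and 3 of db/db lay below the db/+ values and replicate 2 among them. The log2 difference, -0.14 (standard error 0.13), had a 95% confidence interval of -0.44 to 0.15, and its limma adjusted p was 0.89. At a signal like that of the blanks this interval does not bound the change of the miRNA itself. In the authors' deposited table the values were 12.7, 11.8 and 14.9 in db/+ and 1.76, 12.3 and 4.25 in db/db cells. For log2 differences, here and below, 1 was added to each value of that table, which compresses those of dim probes. The log2 difference of miR-150-5p was then -1.29 with a limma adjusted p of 0.84.

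The normalized log2 intensity of miR-150-3p was 7.06, 6.78 and 7.18 in db/+ and 6.97, 6.69 and 6.65 in db/db cells. Replicate 1 of db/db lay among the db/+ values and the others below them. The log2 difference, -0.24 (standard error 0.16), had a 95% confidence interval of -0.62 to 0.14, and its limma adjusted p was 0.89. Its means were 7.01 ± 0.20 (SD, n = 3) and 6.77 ± 0.17 (SD, n = 3). With 75th percentile scaling over detected probes, where the median of all tested probes was -0.14, it was -0.31, and with the blank median subtracted it was -0.64.

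The normalized log2 intensity of miR-342-5p was 6.47, 6.53 and 6.64 in db/+ and 6.47, 6.85 and 6.42 in db/db cells. Replicate 2 of db/db was the highest of the 6 arrays and replicate 3 the lowest. The log2 difference, 0.035 (standard error 0.15), had a 95% confidence interval of -0.33 to 0.40, and its limma adjusted p was 0.96. The difference changed sign between settings, -0.041 with 75th percentile scaling over detected probes and -0.097 without db/db replicate 2 being examples.

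**Figure D2:**
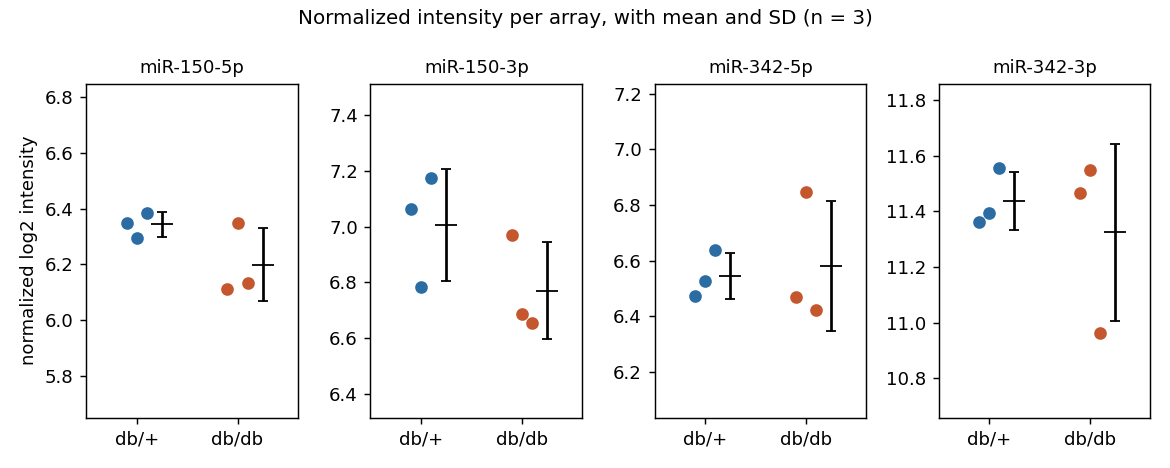
Normalized log2 intensity (vertical axis) of each probe in the 3 db/+ (blue) and the 3 db/db arrays (orange), each panel spanning the same height around its own level; the black bars are the mean ± SD. The groups overlap in every panel, and for miR-342-3p db/db replicate 3 lies apart at 10.96.

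The range of miR-342-3p between arrays was followed through the processing. On the scanner scale its highest array was 3.41 times its lowest, after background correction 3.34 times and after quantile normalization 1.51 times. Quantile normalization gives every array the same distribution, so this narrowing does not show where the range came from. The 3 brightest scanner readings of miR-342-3p were on the 3 arrays with the bright spike control. Within those arrays the normalized log2 difference was 0.17, from 2 db/+ arrays and 1 db/db array, and within the arrays with the dim spike it was -0.34, from 1 db/+ array and 2 db/db arrays. With the spike set as a block it was -0.086. The same within-set values were 0.028 and -0.26 for miR-150-5p, -0.24 and -0.36 for miR-150-3p and 0.35 and -0.19 for miR-342-5p, so that miR-150-3p alone of the 4 kept its sign in both sets. The part of the spike split in these values was not tested further, since 1 arm of each set is a single array.

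**Figure D3:**
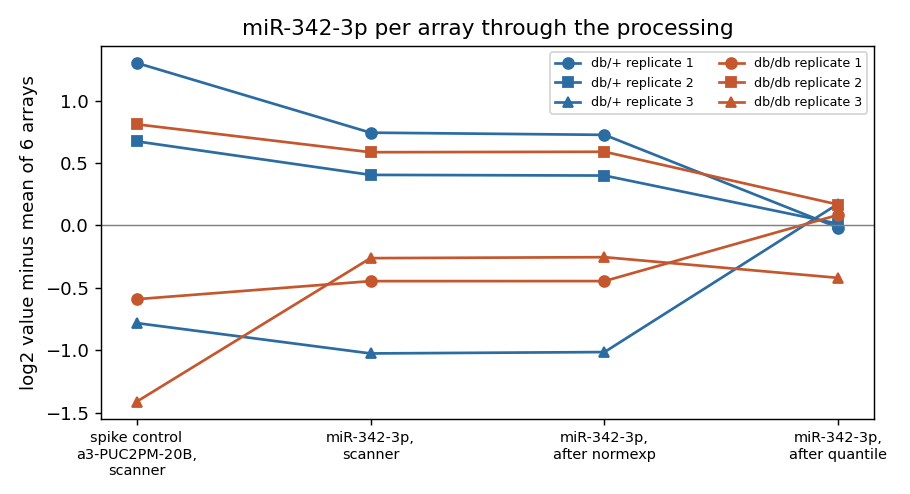
Log2 value of each array minus the mean of the 6 arrays, for the spike control a3-PUC2PM-20B and for miR-342-3p in the scanner signal, after background correction and after quantile normalization; each line is an array, blue for db/+ and orange for db/db. The 3.41-fold range of the scanner signal narrows to 1.51-fold, and db/db replicate 3 is lowest at the last step.

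The arm ratios and the ratio of the usual main arms were compared between the groups on the normalized values, which include the added offset. The exact two-sided permutation test used cannot go below 0.10 with 3 against 3 arrays. The log2 ratio of miR-342-3p over miR-342-5p was 4.89, 4.87 and 4.92 in db/+ cells, and between 4.54 and 5.0 in db/db cells. The db/+ arrays lay close together inside the wider db/db range, the difference was -0.15, and the exact permutation p was 0.40. From the scanner signals the db/+ log2 ratios were 5.18, 5.23 and 4.44, so there they lay less close together. The log2 ratio of miR-150-5p over miR-150-3p was -0.66 ± 0.16 (SD, n = 3) for db/+, against -0.57 ± 0.26 (SD, n = 3) for db/db, with an exact permutation p of 0.70. That of miR-342-3p over miR-150-5p was 5.10 ± 0.078 (SD, n = 3) and 5.13 ± 0.27 (SD, n = 3), with an exact permutation p of 0.90. Adjusted over these 3 ratios each p was 0.90.

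The ratio of miR-342-3p over miR-150-5p differed most from the reported value in 2 of the settings. Its log2 difference between the groups was 1.23 with the authors' deposited table, with 1 added to each value, and 0.85 with the blank median subtracted. Each had an exact permutation p of 0.10, the smallest that 3 against 3 arrays can give. In the authors' deposited table the log2 difference of miR-342-3p itself was -0.057 and that of miR-150-5p -1.29. Since the miR-150-5p probe was not above the blanks on 3 of the 6 arrays, these ratios do not measure a difference in the miRNAs, and the cause of the larger values was not tested.

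Other miRNAs known from lymphocytes were described as a list of both arms of named miRNAs: miR-155, the miR-181 family, miR-142a, miR-146a, members of the miR-17-92 cluster, miR-148a, miR-34a and miR-28a. Without the 4 probes above, 36 such probes were on the array and 27 were tested. None of them passed in either direction. Of the 27, 10 had a log2 difference above 0 and 17 below, with a median of -0.13 against -0.023 for all tested probes. The brightest that were detected on all arrays were miR-20a-5p at a log2 difference of -0.34, miR-181a-5p, which tunes T cell receptor signalling, at -0.28, miR-17-5p at -0.25, miR-19b-3p at -0.10, miR-34a-5p, a p53 target, at 0.11, miR-142a-5p, found throughout blood cells, at 0.68, and miR-148a-3p at -0.35. These are values of single probes, none of which passed. The groups were separate in 5 of the 27, against 9.65% of all tested probes, all lower in db/db cells and named after their values were seen. These 5 were miR-17-3p at -0.37, miR-92a-3p at -0.86, miR-146a-5p at -0.44, miR-148a-3p at -0.35 and miR-181c-5p at -1.33. The limma adjusted p of miR-181c-5p was 0.14. In the other direction the largest difference was 0.95, for miR-142a-3p, with overlapping groups. The summed normalized signal of the 36 probes ranged from 13892 to 24654 in db/+ and from 13680.4 to 17429 in db/db cells, with overlapping groups. Such sums, here and for the lists below, include undetected probes and the added offset in every value. Because miR-17-92, miR-34a and miR-146a are also expressed outside lymphocytes, the list is no measure of lymphocytes.

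**Figure D4:**
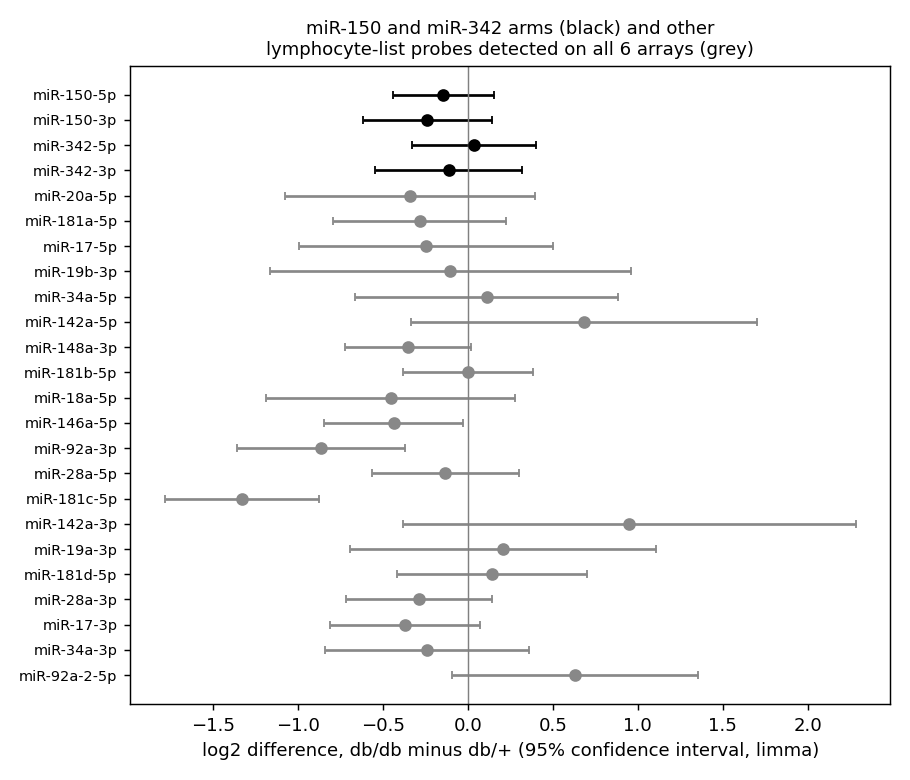
Log2 difference, db/db minus db/+ (horizontal axis), with its 95% confidence interval from limma, for the 4 probes of miR-150 and miR-342 (black) and the other lymphocyte-list probes detected on all 6 arrays (grey). All 4 black intervals include 0, from -0.62 at the lowest to 0.40 at the highest.

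Markers of other cells that adherent marrow cultures can hold were read in the same way, and none of their probes passed. Of the 6 probes listed as myeloid all were tested, with a median log2 difference of -0.28. Their summed normalized signal was 19029 to 37035 in db/+ and 21826 to 31800 in db/db cells. The brightest of the list was miR-21a-5p, at a log2 difference of -0.64, with a mean scanner signal of 16030. The others detected on all arrays were miR-223-3p, a miRNA of granulocytes and monocytes, at 0.55, its other arm miR-223-5p at -0.47 and miR-511-3p, known from macrophages, at -0.68. The groups were separate in 2 of the 6, miR-511-3p and miR-223-5p, both lower in db/db cells. Among all tested probes this share was 9.65%, which stands beside the counts of the next lists too. For miR-223-3p the groups overlapped and neither miR-223 arm passed, so their opposite signs are not read as a difference between the arms. Of 14 stromal probes 13 were tested, with a median of -0.19 and sums of 16788 to 20321 and 10370.0 to 17025. The 8 brightest stromal probes lay between -0.68 for miR-199a-3p and 0.18 for miR-10a-5p, and the groups were separate in 1 of the 13, miR-214-3p, at -0.59. For the 6 erythroid and platelet probes 3 were tested, with a median of -0.13 and sums of 706 to 2806 and 790 to 1472, with miR-451a, the main miRNA of red cells, at -0.60 and miR-486b-3p at 0.15. The groups were separate in 1 of these 3, miR-486a-5p, at -0.13. Of the 4 endothelial probes only miR-126a-3p was tested, at -0.33, and the sums were 1505 to 2362 and 1237 to 1935. In each list the sums of the groups overlapped. As the sums hold the added offset and undetected probes, they are no measure of a cell type. The part of these lists in the miR-150 and miR-342 readings was not tested.

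The probes whose pattern over the 6 arrays was most like each of the 4 were found by the root mean square difference of the profiles, each centred and divided by its SD, among probes detected on all arrays. A value of 0 means the same profile. For miR-150-5p the closest of 671 were miR-511-3p at 0.274, miR-223-5p at 0.305 and miR-106b-3p at 0.341. As the miR-150-5p probe was at the blank level, this likeness is not read as one of the miRNA. For miR-150-3p the closest of 670 were miR-361-5p at 0.326, miR-6995-5p at 0.389 and miR-7040-5p at 0.426. For miR-342-5p they were miR-7225-3p at 0.0970, miR-7049-3p at 0.250 and miR-532-3p at 0.294, and for miR-342-3p miR-195a-3p at 0.337, miR-92b-3p at 0.386 and miR-214-3p at 0.446. The 2 arms stood at 1.02 for miR-150 and at 0.769 for miR-342, and miR-150-5p and miR-342-3p at 0.832. The closest probes were picked as the smallest of 670 or 671 values, so these fixed pairs cannot be ranked against them. These values describe 6 arrays only.

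**Figure D5:**
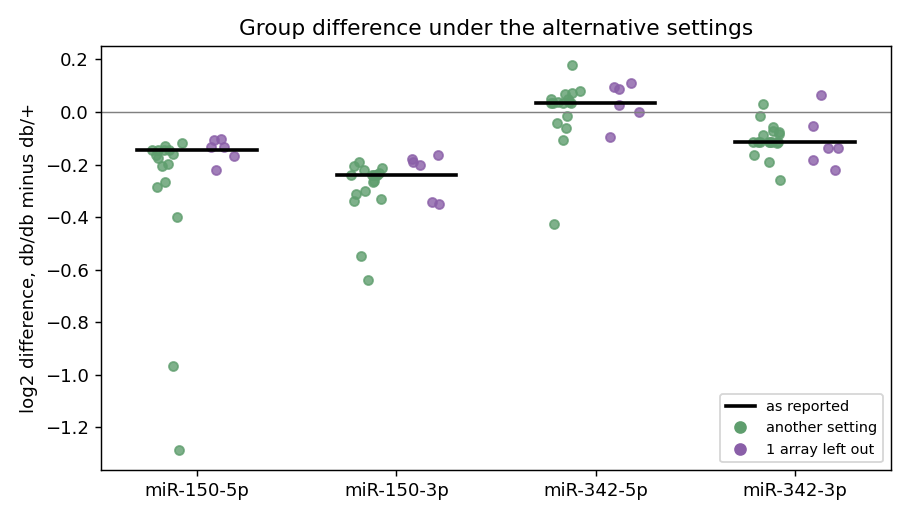
Log2 difference, db/db minus db/+ (vertical axis), of each probe as reported (black line), in other processing settings (green) and with 1 array left out (purple). miR-150-5p and miR-150-3p stay below 0 in every setting, down to -1.29 and -0.64, while miR-342-5p and miR-342-3p fall on both sides of 0. Settings of the probe filter, the variance model and the replicate block cannot move a value.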

How the data were processed

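The scanner files give the median intensity of every spot on a linear scale, per the file headers, with no column for background. The authors also deposited a table of processed intensity values, linear and 1 per probe, whose background correction and normalization are not given in the sources used here. Each array had 3968 spots, 168 of them controls. Per the labels' protocols, 1 µg of total RNA was poly(A)-extended and tagged for Cy5.

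Spots were background-corrected with normexp (offset 50), the mouse spots quantile-normalized, log2-transformed and averaged per probe (2 spots) with limma 3.58.1 in R 4.3.3. Probes above the 95th percentile of the blanks on at least 3 of 6 arrays were tested with lmFit and eBayes over all 6 arrays, with Benjamini-Hochberg adjustment over 1181 probes. Ratios used exact permutation tests. The limma step was tested on simulated data. No 2 arrays held the same values. Same-numbered samples were not paired, since their deviations correlated between -0.04 and 0.03.

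The probes, lists and tests were chosen with earlier results of these data known. Named miRNAs were the 4 probes, probes sharing their seed, up to 8 probes per list by signal among those detected on all arrays, and the 3 closest profiles. Outside this rule, miR-3971 was added after its sequence was seen. Also named outside it were list probes with separate groups, miR-142a-3p, miR-126a-5p and the miR-126b probes. Alternatives covered normalization, background, the value table, detection, spots, variance model, array weights, blocks and left-out arrays. Slide and scan time were not in the headers. Figures used matplotlib 3.10.9 in Python 3.11.15.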

Additional observations from a re-analysis of the deposited data

How the results depend on the processing

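None of the 4 probes passed in any of 24 alternative settings in which it was tested, and miR-150-5p and miR-150-3p kept their sign in all of theirs. Settings that changed only the probe filter, the variance model or the replicate block could not move a difference, so they say nothing about its sign. All settings used the same 6 arrays or part of them. Among the 24 settings, the uncorrected scanner signal and the spike split as a block were chosen after seeing the data. With 75th percentile scaling over detected probes miR-342-5p was -0.041 and 4 probes of the array passed. With that scaling over all mouse probes, normexp offset 16, detection on all 6 arrays, blanks plus 3 SD, or the first spot only, 1 probe passed, with trend and robust estimation 2, and with the uncorrected scanner signal 3. In the last of these miR-342-5p was -0.062 and the miR-150 arm ratio -0.058. With the blank median subtracted miR-342-5p was -0.43, the miR-150 arm ratio -0.33 and the miR-342 arm ratio 0.31. In the authors' table, with 1 added to each value, the miR-150 arm ratio was -0.74. By the first spot only miR-342-3p was 0.032, by the second spot only miR-342-5p was -0.11 and the ratio of miR-342-3p over miR-150-5p -0.13, and with array weights miR-342-5p was -0.017. Leaving out 1 array gave -0.22 to -0.10 for miR-150-5p, -0.35 to -0.16 for miR-150-3p, -0.097 to 0.11 for miR-342-5p, -0.22 to 0.067 for miR-342-3p, -0.030 to 0.25 for the miR-150 arm ratio, -0.28 to -0.045 for the miR-342 arm ratio, -0.078 to 0.17 for miR-342-3p over miR-150-5p, and 0 to 3 passing probes, 3 without db/db replicate 2. The replicate block could not change the differences of -0.14, -0.24, 0.035 and -0.11, in the order above, since each replicate number occurs once per group. With it 0 probes passed. The cause of these changes was not tested. Under detection on all 6 arrays neither miR-150-5p nor miR-342-5p was tested, and by blanks plus 3 SD miR-150-5p was not; a block for slide or scan time was not run. Signal over the blanks limits all but miR-342-3p.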

Other observations

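The 4 target sequences differ in base composition, and their signals were set beside those of probes of similar composition. The G and C content was 54.5% for miR-150-5p, 63.6% for miR-150-3p and 52.2% for miR-342-3p. Among probes within 1 base of its length and within 1 G or C of its content, miR-342-3p was brighter, as a mean multiple of the blank median, than 98.4% of 500, at 42.9 against a median of 1.13. The miR-150-5p probe was brighter than 40.1% of 653 such probes, at 1.07 against 1.16. The miR-150-3p probe was brighter than 67.1% of 441, at 1.70 against 1.34, and miR-342-5p than 66.4% of 687, at 1.36 against 1.10.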
